A study of Mus musculus with 6 samples.

Results

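Immediate early genes were followed library by library in the female mouse submandibular gland (SMG), one of the major salivary glands. The 10 genes Fos, Fosb, Fosl2, Jun, Junb, Jund, Egr1, Ier2, Nr4a1 and Zfp36 were taken by name from a deposited table of raw read counts with 43280 rows. All 10 were found there under their own symbols, and all 10 had at least 10 counts summed over the 6 libraries, the minimum for testing. The table holds 3 SMG libraries labelled WT and 3 labelled DKO, numbered 1, 4 and 5 in each group, from female mice.

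The libraries labelled DKO are from mice in which both Hs3st3a1 and Hs3st3b1, a pair of enzymes that add 3-O-sulfate to heparan sulfate, were inactivated in every cell. Hs3st3a1 carries a frameshift deletion in exon 1, made with zinc finger nucleases, on the chromosome that also carries the Hs3st3b1 knockout allele with its LacZ cassette, in C57BL/6 mice. Which founder line gave these glands is not given in the sources used here. The libraries labelled WT are from wildtype females. The study describes the sequenced glands as adult. The age of the mice in weeks and the hour of collection are also not given in the sources used here. The read counts of the targeted genes did not separate the groups. Hs3st3a1 had 15, 11 and 15 counts in WT 1, 4 and 5 and 11, 8 and 13 in DKO 1, 4 and 5, and Hs3st3b1 had 173, 203 and 261 against 255, 120 and 189. By qPCR, however, the study found neither gene expressed in adult DKO glands of either sex. Its mass spectrometry of male DKO glands found a highly 3-O-sulfated tetrasaccharide missing. Why the read counts differ from the qPCR was not tested. Groups are named by their labels throughout. Total counts ran from 23674258 to 29611975 per library, and the 10 immediate early genes together took between 111 and 126 CPM (counts scaled to the library total) in each library.

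Immediate early genes are transcribed within minutes of a stimulus, without new protein synthesis, because the factors that switch them on are already in the cell. Growth factor receptors act on them through the MAPK pathway, which activates SRF with its ELK partners at their promoters, and calcium and cyclic AMP act through CREB. Most of their transcripts are short lived and their proteins are transcription factors or RNA-binding proteins, so that the level in a tissue follows recent signalling as well as handling before RNA was stabilized. The study examined growth factor signalling in glands lacking these enzymes, and the comparison here asks whether the transcripts at this step differed between the groups. In whole glands, fewer cells of a type and less RNA per cell cannot be told apart.

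Short lives of such transcripts are associated with AU-rich elements in the 3′ UTR, which Zfp36 protein binds. In the GENCODE M21 annotation of GRCm38, the pentamer ATTTA was found in the 3′ UTR of 9 of the 10 genes, all but Ier2, and in 65.8% of the 14043 other protein coding genes tested. The longer element TTATTTATT, which contains the pentamer, was found in 3 of the 10 and in 7.24% of the others. These 3 genes were Fos, Fosl2 and Zfp36 itself, and 30 bases around the element are shown for each, in the direction of the transcript and with the element in capitals. They lie at chr12:85477103-85477132 on the plus strand for Fos, at chr5:32156871-32156900 on the plus strand for Fosl2 and at chr7:28376950-28376979 on the minus strand for Zfp36.
Fos: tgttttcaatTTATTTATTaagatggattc
Fosl2: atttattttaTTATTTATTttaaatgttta
Zfp36: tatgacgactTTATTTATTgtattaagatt
The match is a description of the sequence and was not tied to a level in these libraries.

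The core of the CREB site, TGACG, was searched on both strands (CGTCA on the other) in the 250 bases before the transcription start that RefSeq gives on GRCm38.p6. Of the 10 genes, 8 had an entry, and Egr1 and Ier2 had none. TGACG was found in 4 of the 8, Fos, Fosb, Junb and Nr4a1, and in 17.8% of 32851 windows of the same length. The windows of Fos, Fosb and Nr4a1 are shown 5′ to 3′ because the results turn on these genes, with TGACG or CGTCA in capitals. They lie at chr12:85473640-85473889 on the plus strand for Fos, chr7:19310046-19310295 on the minus strand for Fosb and chr15:101266596-101266845 on the plus strand for Nr4a1.
Fos: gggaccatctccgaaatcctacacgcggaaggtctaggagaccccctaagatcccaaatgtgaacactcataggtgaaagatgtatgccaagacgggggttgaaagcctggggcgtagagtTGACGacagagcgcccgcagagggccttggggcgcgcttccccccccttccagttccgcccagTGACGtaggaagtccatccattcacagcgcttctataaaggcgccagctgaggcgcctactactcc
Fosb: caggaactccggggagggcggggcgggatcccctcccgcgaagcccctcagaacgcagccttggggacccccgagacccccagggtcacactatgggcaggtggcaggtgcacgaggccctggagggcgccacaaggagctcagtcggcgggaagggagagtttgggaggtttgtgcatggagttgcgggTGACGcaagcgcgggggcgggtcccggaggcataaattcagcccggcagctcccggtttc
Nr4a1: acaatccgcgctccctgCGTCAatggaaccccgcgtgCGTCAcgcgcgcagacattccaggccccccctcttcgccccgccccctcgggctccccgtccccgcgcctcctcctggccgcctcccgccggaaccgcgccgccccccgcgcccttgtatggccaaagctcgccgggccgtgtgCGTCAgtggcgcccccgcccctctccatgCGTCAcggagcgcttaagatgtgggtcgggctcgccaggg
The Nr4a1 window holds the core 4 times and the Fos window holds it 2 times. Of the other motifs searched on both strands, the complete CREB palindrome TGACGTCA was in 0 of the 8 windows and in 1.55% of all, and the AP-1 site TGANTCA was in 0 of the 8 and in 6.75% of all. The EGR site GCGNGGGCG was in the windows of Fosb, Fosl2, Nr4a1 and Zfp36 and in 4.70% of all, and the CArG box that SRF binds was in that of Zfp36 and in 1.47% of all. The windows of Fosb, Fosl2, Nr4a1 and Zfp36 held 68.8, 64.4, 74.4 and 64.8% G or C, beside a median of 52.4% over all windows. None of the motif shares was adjusted for base content. Bases beyond the 250 were not searched, so a gene without a match in its window may carry the motif elsewhere. TATAAA, searched on the plus strand, was in the Fos window and in 7.59% of all. For Nr4a1, the RefSeq start lies 12577 bases inside the gene as GENCODE draws it, and counts per gene do not say which start was used. The starts also differ for Zfp36 and Fosl2, by 1025 and 671 bases inside the gene, and for Jund, by 1210 bases before it, and these windows are among the 8 counted.

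The 10 genes differed widely in level. Compared per length, as normalized counts per kilobase of exon averaged over the libraries labelled WT, Jund was highest at 500.4 ± 14.98 (SD, n = 3). It was followed by Nr4a1 at 187 ± 37.1, Jun at 177 ± 25.3, Junb at 75.7 ± 9.77 and Ier2 at 70.8 ± 3.33. Zfp36 stood at 47.2 ± 0.736, Fosl2 at 36.6 ± 7.26, Fos at 33.7 ± 31.0, Egr1 at 11.3 ± 3.97 and Fosb at 2.80 ± 2.14. Neighbours in this order that differ by less than the larger SD of the pair are Nr4a1 and Jun, Junb and Ier2, Fosl2 and Fos, and Fos and Egr1. Of the 10, 4 genes, Jun, Junb, Jund and Ier2, have a single exon, against 2.74% of the 14043 other protein coding genes tested. The other values below are normalized counts, which are raw counts divided by the size factor of the library, and are compared only between libraries.

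**Figure D1:**
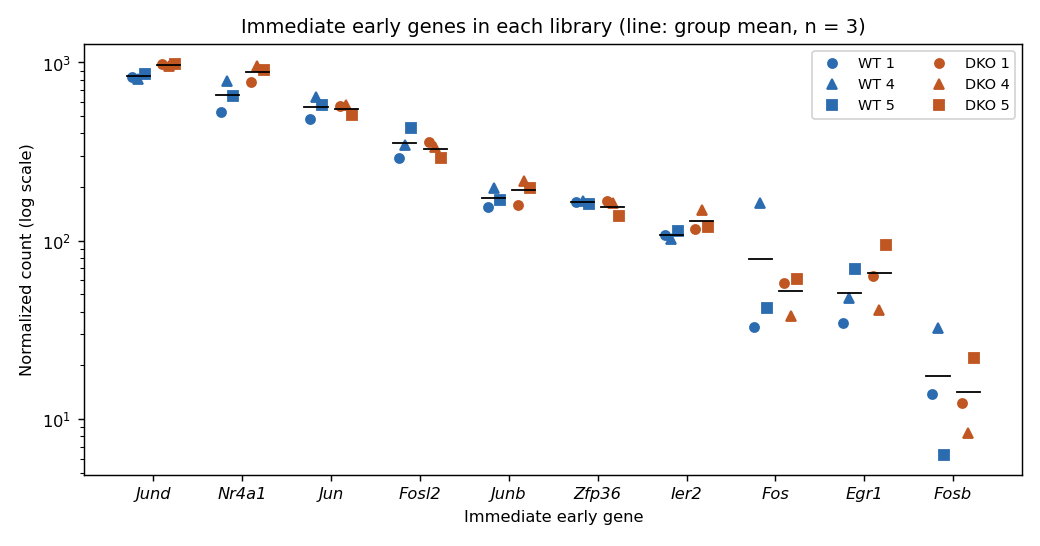
Normalized counts (y axis, log scale) of the 10 immediate early genes in each of the 6 libraries, ordered by mean level, with WT in blue, DKO in orange, a symbol for each replicate number and a line at each group mean (n = 3). The point for Fos in WT 4, at 163, stands above the other 5 Fos points, while both groups are tight and apart for Jund.

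None of the 10 genes passed the test between the groups, where 539 of 18606 rows tested passed (2.9%; DESeq2, adjusted p under 0.05). By the same call, 1.02% of rows were higher in the libraries labelled DKO and 1.88% lower. The fold changes of the 10 ran from a log2 of -0.60 for Fos to 0.43 for Nr4a1, with 5 above and 5 below 0 and a median of 0.05, beside a median of 0.00 over all rows. Unadjusted p-values were under 0.05 for 2 of the 10, Nr4a1 and Jund, and for 12.2% of all rows. Of the 10, 2 had groups that did not overlap, Jund and Ier2, both higher in the libraries labelled DKO, against 9.85% of all rows that were apart in that direction and 20.3% in either. With edgeR and with limma-voom 0 of the 10 passed as well, the lowest adjusted p-values being 0.218 (Jund, edgeR) and 0.257 (Nr4a1, limma-voom), and 2 of the 10 had an unadjusted p under 0.05 with each. These tools called few rows of any kind, 0.0537% with edgeR and 0.0376% with limma-voom, and 15% and 14% of all rows had an unadjusted p under 0.05.

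**Figure D2:**
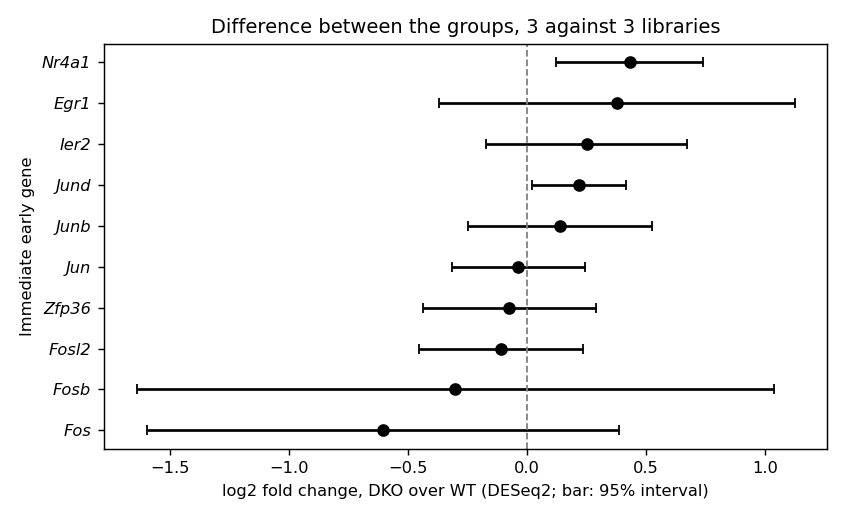
Log2 fold change (x axis, libraries labelled DKO over WT, DESeq2) of each immediate early gene with its 95% interval. The intervals of 8 genes cross 0, and those of Jund and Nr4a1 lie above 0 before adjustment over all rows.

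Fos, Fosb and Fosl2 encode members of the FOS family, which pair with JUN proteins to form the AP-1 transcription factor. Fos (chromosome 12, 85473890 to 85477273, plus strand) had 32.7, 163 and 42.1 normalized counts across WT 1, 4 and 5, and 57.9, 37.6 and 61.1 in DKO 1, 4 and 5. WT 4 was the highest of the 6 libraries, 2.67 times the next one, WT 1 was the lowest, and every library labelled DKO lay between WT 1 and WT 4. In raw counts WT 4 had 167 (exact Poisson 95% interval 143 to 194) and DKO 1, the next highest, had 61 (46.7 to 78.4), so the gap exceeded counting error. Within the libraries labelled WT the highest Fos value was 5.002 times the lowest, and within those labelled DKO it was 1.62 times. The means were 79.4 ± 72.9 and 52.2 ± 12.7 (SD, n = 3), and the log2 fold change was -0.60 (SE 0.51, 95% interval -1.59 to 0.39, DESeq2 adjusted p = 0.708).

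Fosb (chromosome 7, 19302696 to 19310051, minus strand) was the least abundant of the 10. Its normalized counts were 13.9, 32.3 and 6.27 in WT 1, 4 and 5 and 12.3, 8.36 and 21.9 in DKO 1, 4 and 5. WT 4 was again the highest library, but the lowest was WT 5, and the WT values spanned 5.15 times. The log2 fold change was -0.30 (SE 0.68, 95% interval -1.64 to 1.04, DESeq2 adjusted p = 0.929). At 7 to 33 raw counts per library, changes of either sign inside this interval remained compatible with the data. Fosl2 (chromosome 5, 32135801 to 32157842, plus strand), which encodes the longer-lived FRA2 protein, did not share the peak in WT 4. It had 291, 342 and 430 normalized counts across WT 1, 4 and 5 and 359, 337 and 291 in DKO 1, 4 and 5. WT 5 was the highest and the groups overlapped, with a log2 fold change of -0.11 (SE 0.18, adjusted p = 0.895).

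Jun, Junb and Jund encode the JUN family, the partners of FOS proteins, of which JUND is present in resting cells and JUN and JUNB are the more inducible. Jun (chromosome 4, 95049034 to 95052222, minus strand) had 481, 642 and 575 normalized counts across WT 1, 4 and 5 and 568, 579 and 507 in DKO 1, 4 and 5. WT 4 was the highest and WT 1 the lowest, with all libraries labelled DKO in between, the same outline as Fos at a smaller range. Its log2 fold change was -0.04 (SE of 0.14, adjusted p = 0.962 by DESeq2), and the 95% interval of the ratio ran from 0.804 to 1.18, so changes beyond that range in either direction lay outside the interval. Junb (chromosome 8, 84974484 to 84978718, minus strand) had 154, 199 and 169 in WT 1, 4 and 5 and 159, 217 and 198 in DKO 1, 4 and 5. The groups overlapped, library 4 being highest in each, and the log2 fold change was 0.14 (SE 0.20, adjusted p = 0.876).

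Jund (chromosome 8, 70698949 to 70700616, plus strand) was the steadiest of the abundant genes. It had 832, 811 and 861 normalized counts across WT 1, 4 and 5 and 976, 951 and 986 in DKO 1, 4 and 5. Every library labelled DKO was above every library labelled WT, and the means were 835 ± 25.0 and 971 ± 17.9 (SD, n = 3). The log2 fold change was 0.22 (SE 0.10, 95% interval 0.02 to 0.41), with an unadjusted p of 0.0297 and a DESeq2 adjusted p of 0.274, so it did not pass. Scaled to total counts instead of median-of-ratios size factors, which moves the median of all rows by -0.23, the Jund value was -0.02. Relative to all rows, it stayed 0.22 above that median. The reads were unstranded, and 877 bases (52.6%) of Jund exon are shared with the antisense gene Gm11175, which itself was given 8 to 13 counts per library. Smaller overlaps link Jun with Junos (232 bases) and Junb with Prdx2 (173 bases), which has 1220 to 1649 counts per library.

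Egr1 and Nr4a1 encode transcription factors outside AP-1, EGR1 being a target of SRF and ELK proteins and NR4A1 an orphan nuclear receptor. Egr1 (chromosome 18, 34859823 to 34864984, plus strand) had 34.6, 47.9 and 69.9 normalized counts across WT 1, 4 and 5 and 63.6, 40.8 and 94.5 in DKO 1, 4 and 5. Both groups spread over about a doubling, 2.02 times in WT and 2.32 times in DKO, and the groups overlapped. DKO 5 was the highest library and WT 1 the lowest, so Egr1 did not share the Fos peak in WT 4. The log2 fold change was 0.38 (SE 0.38, 95% interval -0.37 to 1.12, DESeq2 adjusted p = 0.785).

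Nr4a1 (chromosome 15, 101254269 to 101274795, plus strand) had the largest positive fold change of the 10 and the lowest adjusted p-value. Its normalized counts were 528, 788 and 647 in WT 1, 4 and 5 and 776, 961 and 911 in DKO 1, 4 and 5. The groups overlapped by a single pair of libraries, WT 4 at 788 and DKO 1 at 776. The means were 655 ± 130 and 882 ± 95.4 (SD, n = 3), and the log2 fold change was 0.43 (SE 0.16, 95% interval 0.12 to 0.74, unadjusted p = 0.00640, DESeq2 adjusted p = 0.111). Without WT 4 it was 0.59 with an adjusted p of 0.00912, and that was the single call of any of the 10 genes in the 17 fits. Without each of the other libraries in turn it ran from 0.30 to 0.52 and did not pass.

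Ier2 encodes a small nuclear protein of the early response, and Zfp36 the protein tristetraprolin, which binds AU-rich elements and shortens the life of the transcripts that carry them. Ier2 (chromosome 8, 84661331 to 84662852, minus strand) had 108, 103 and 113 normalized counts across WT 1, 4 and 5 and 116, 149 and 120 in DKO 1, 4 and 5. The groups were apart by the small step from 113 in WT 5 to 116 in DKO 1, and the log2 fold change was 0.25 (SE of 0.22, adjusted p = 0.718 by DESeq2). Zfp36 (chromosome 7, 28376784 to 28380253, minus strand) had 164, 166 and 161 in WT 1, 4 and 5 and 166, 163 and 137 in DKO 1, 4 and 5. All but DKO 5 lay between 161 and 166, and the log2 fold change was -0.07 (SE 0.18, adjusted p = 0.938).

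The genes varied between libraries of one group to very different degrees. Measured as the SD of log2(normalized count + 1) over the 3 libraries labelled WT, Fos varied by 1.23 and Fosb by 1.10. Among the 11489 rows with a mean of at least 50 normalized counts, the median was 0.11 and Fos stood at percentile 99.5, and at 92.4 in DKO. Egr1 stood at percentile 96.3 in WT and 98.0 in DKO, Nr4a1 at 89.3 and 52.1, and Fosl2 at 88.8 and 50.4. At the other end Zfp36 stood at percentile 3.17 in WT but 48.7 in DKO, and Jund at 11.2 in WT and 2.31 in DKO. Fosb, below that mean, was not ranked. Fos reached that mean only through its value in WT 4, so its percentile in WT describes that peak and is not a separate measure of it.

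**Figure D3:**
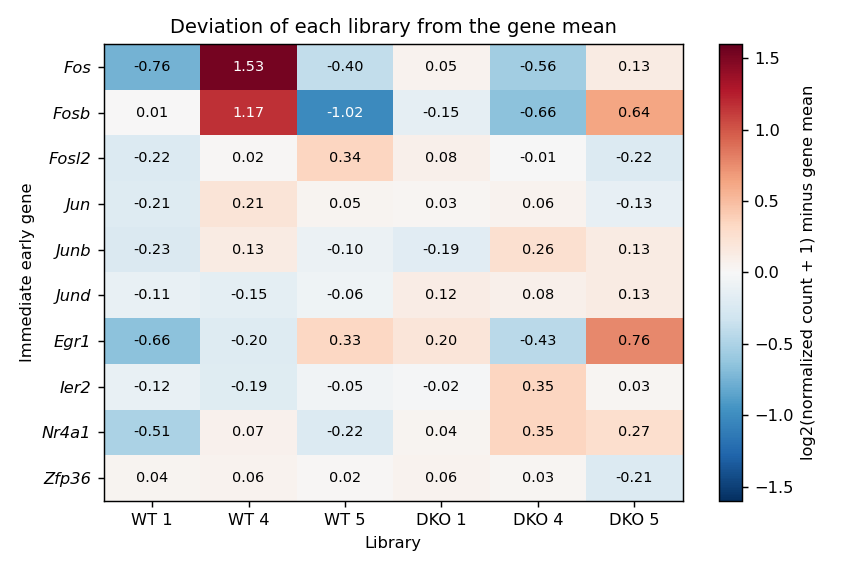
Deviation of each library (columns) from the mean over the 6 libraries, in log2(normalized count + 1), for each immediate early gene (rows), with the value in each cell and the colour scale in the same unit. WT 4 is 1.53 above the mean for Fos and 1.17 above for Fosb but within 0.21 of it for the other 8 genes.

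WT 4 held the highest value of the 6 libraries for 4 of the 10 genes, Fos, Fosb, Jun and Zfp36, and the lowest for 2, Jund and Ier2. DKO 4 was highest for 3, DKO 5 for 2 and WT 5 for 1. WT 1 was lowest for 5 of the 10. No library was therefore raised for all of the genes. Summed over the 10 genes, normalized counts were 2640, 3295 and 3074 in WT 1, 4 and 5 and 3254, 3444 and 3327 in DKO 1, 4 and 5, and WT 4 stood inside the DKO range. As a description over 6 libraries that share their size factors, Pearson's r between pairs of genes ran from -0.72 (Egr1 and Zfp36) to 0.84 (Junb and Nr4a1), with a median of 0.08 and 26 of the 45 pairs above 0. Fos correlated with Fosb at 0.79 and with Jun at 0.66.

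A peak as isolated as that of Fos was uncommon in WT 4. Of the 11489 rows with a mean of at least 50, 3 were highest in WT 4 by at least 2-fold over the next library. These were Fos, Cyp26b1, which encodes an enzyme that degrades retinoic acid, and Slc15a2, which encodes a peptide transporter, and the latter pair were named after their values were seen. The same count was 39 rows in WT 1, 25 in WT 5, 3 in DKO 1, 11 in DKO 4 and 3 in DKO 5, and no other gene of the 10 was among them. Fos and Cyp26b1 reached the minimum mean only through WT 4, so these counts describe the peak and are not a test of it. Atf3, a stress-induced partner of AP-1 proteins that was likewise named after its values were seen, was also highest in WT 4, with 41.6, 89.99 and 49.3 normalized counts across WT 1, 4 and 5 and 43.6, 43.9 and 54.2 in DKO 1, 4 and 5. Other early response genes, described below, were divided. Klf6 and Dusp1 were highest of the 6 libraries in WT 4, at 1004 and 143, whereas Nr4a3 and Dusp6 were lowest there, at 96.8 and 894. Over all rows tested, 13.3% were highest and 12.8% lowest in WT 4. These genes are examples, and the early response genes were not tallied by library. The rows whose profile over the 6 libraries was most like the mean profile of the 10 genes were Sel1l (r = 0.987), Zfp551, Fam210a, Map3k9, Tada2a, Myom1, Fry, Garem, Wac and Cdk7 (r = 0.968). Fos itself reached 0.892, and 109 of 11480 other rows exceeded 0.9. Each of the 10 genes is part of this mean, which the other rows are not, so its own r is not a separate measure. The mean profile was not shared by all of the 10 genes. Jund was at 0.14, Fosl2 at -0.03, Ier2 at -0.14 and Zfp36 at -0.30, and the remaining genes ran from 0.46 (Egr1) to 0.71 (Fosb).

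The sign of the fold change depended on single libraries for 5 of the 10 genes. Without WT 4 the values for Fos, Fosb and Jun turned to 0.48, 0.50 and 0.06, and 8 of the 10 genes were above 0 with a median of 0.23. Without WT 5 that of Fosl2 was 0.06, and without DKO 5 those of Jun and Zfp36 were 0.02 and 0.01. Without WT 1, the library in which 5 of the genes were lowest, the median was -0.01 and the Fos value was -0.97. For Junb, Jund, Egr1, Ier2 and Nr4a1 the value stayed above 0 whichever library was left out, with Egr1 ranging from 0.04 to 0.68. With total counts as size factors the values of Junb and Jund fell below 0, to -0.10 and -0.02, while those of Egr1, Ier2 and Nr4a1 stayed above it.

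**Figure D4:**
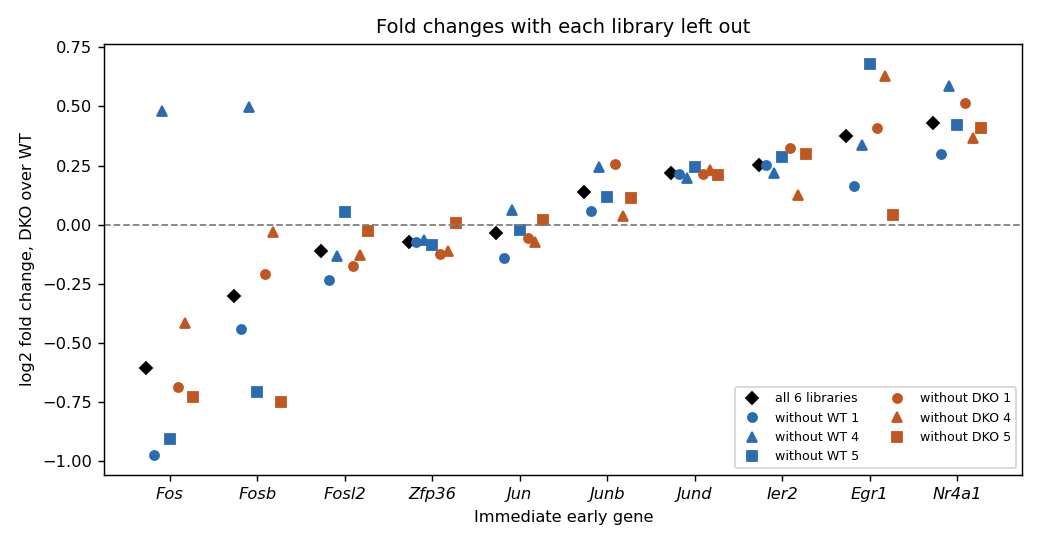
Log2 fold change (y axis, libraries labelled DKO over WT, DESeq2) of each immediate early gene with all 6 libraries (black) and with each library left out in turn (coloured symbols). Leaving out WT 4 moves Fos from -0.60 to 0.48 and Fosb from -0.30 to 0.50, whereas Jund stays between 0.20 and 0.24.

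A wider set of genes of the early response was read beside the 10. Of 52 further genes, 23 encode transcription factors and 29 encode signalling or RNA regulators, and 50 had enough counts to be tested. Of the 50, 3 were lower in the libraries labelled DKO, 1 was higher and 46 did not pass, beside 1.88% lower and 1.02% higher over all rows. Their median log2 fold change was -0.14, 18 were above 0, and 16 had an unadjusted p under 0.05, beside 12.2% of all rows. None of the 50 passed with edgeR or with limma-voom, which called 0.0537% and 0.0376% of all rows. With these tools 18 and 17 of the 50 had an unadjusted p under 0.05, beside 15% and 14% of all rows. Egr4 had 0 counts in all 6 libraries.

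Among the further transcription factors, 1 of 21 tested passed. Klf6, a zinc finger factor, fell in the libraries labelled DKO, with 981, 1004 and 972 normalized counts across WT 1, 4 and 5 and 691, 724 and 556 in DKO 1, 4 and 5. The groups were far apart, with a log2 fold change of -0.58 (SE of 0.13, adjusted p = 0.000701 by DESeq2), and Klf6 was called in every DESeq2 fit with a library left out. Nr4a3, a close relative of Nr4a1, had 112, 96.8 and 154 in WT 1, 4 and 5 and 170, 175 and 172 in DKO 1, 4 and 5. Its groups did not overlap, and its log2 fold change of 0.51 (SE 0.22, adjusted p = 0.228) did not pass. Cebpb, an early factor of the C/EBP family, was at 0.51 (adjusted p = 0.236), and its relative Cebpd was at -0.63 (adjusted p = 0.382). The interferon-induced factor Irf1 was at -0.55 (adjusted p = 0.114) and the clock gene Per1, also an early gene, at -0.46 (adjusted p = 0.880).

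Among the signalling and RNA regulators, 3 of 29 passed. Dusp1, a phosphatase that removes the activating phosphates from MAP kinases, fell, with 129, 143 and 108 normalized counts across WT 1, 4 and 5 and 57.9, 84.7 and 63.4 in DKO 1, 4 and 5. No library labelled DKO reached the lowest labelled WT, and the log2 fold change was -0.88 (SE of 0.25, adjusted p = 0.0219 by DESeq2). Btg1, an antiproliferative protein, fell by 0.42 on the log2 scale (SE 0.13, adjusted p = 0.0499), at the edge of the threshold. Trib1, a pseudokinase that directs proteins to degradation, rose, with 650, 750 and 781 in WT 1, 4 and 5 and 838, 1275 and 1023 in DKO 1, 4 and 5, a log2 fold change of 0.52 (SE 0.16, adjusted p = 0.0345).

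The other phosphatases of the Dusp1 family on the list, Dusp2, Dusp4, Dusp5 and Dusp6, did not pass, at -1.53 (adjusted p = 0.414), 1.999, 0.24 (adjusted p = 0.754) and 0.44 (adjusted p = 0.0972). Dusp4, which is induced by MAP kinase signalling and acts on it in the nucleus, had 75.2, 89.99 and 113 normalized counts across WT 1, 4 and 5 and 262, 706 and 144 in DKO 1, 4 and 5. All libraries labelled DKO were higher but spread 4.90 times among themselves, and the SE of the log2 fold change was 0.67 (adjusted p = 0.0692 by DESeq2). Without DKO 4, the highest library, it fell to 1.13 and was called (adjusted p = 0.0481), and without DKO 5, the lowest of its group, it was 2.38 (adjusted p = 2.42e-07). Cyr61, a matricellular protein, was at -0.90 (adjusted p = 0.0690), Arc, which is best known from neurons, at -0.67 (adjusted p = 0.104) and Tnfaip3, a feedback inhibitor of NF-kappa-B, at -0.63 (adjusted p = 0.220). Of these genes, Dusp1 lost its call without WT 1, WT 4, WT 5, DKO 1 or DKO 5, Trib1 lost it without each library but DKO 1, and Btg1 without each library but WT 4. Calls were gained by Cyr61 without DKO 4 (-1.28, adjusted p = 0.00405), by Arc without WT 4 (-0.86, adjusted p = 0.0189) and by Dusp6 without WT 1 (0.59, adjusted p = 0.0472) and without DKO 1 (0.56, adjusted p = 0.0279). Of the other early response genes, Irf1 was also called without WT 4, Bhlhe40 without DKO 1 and Sgk1 without DKO 4.

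**Figure D5:**
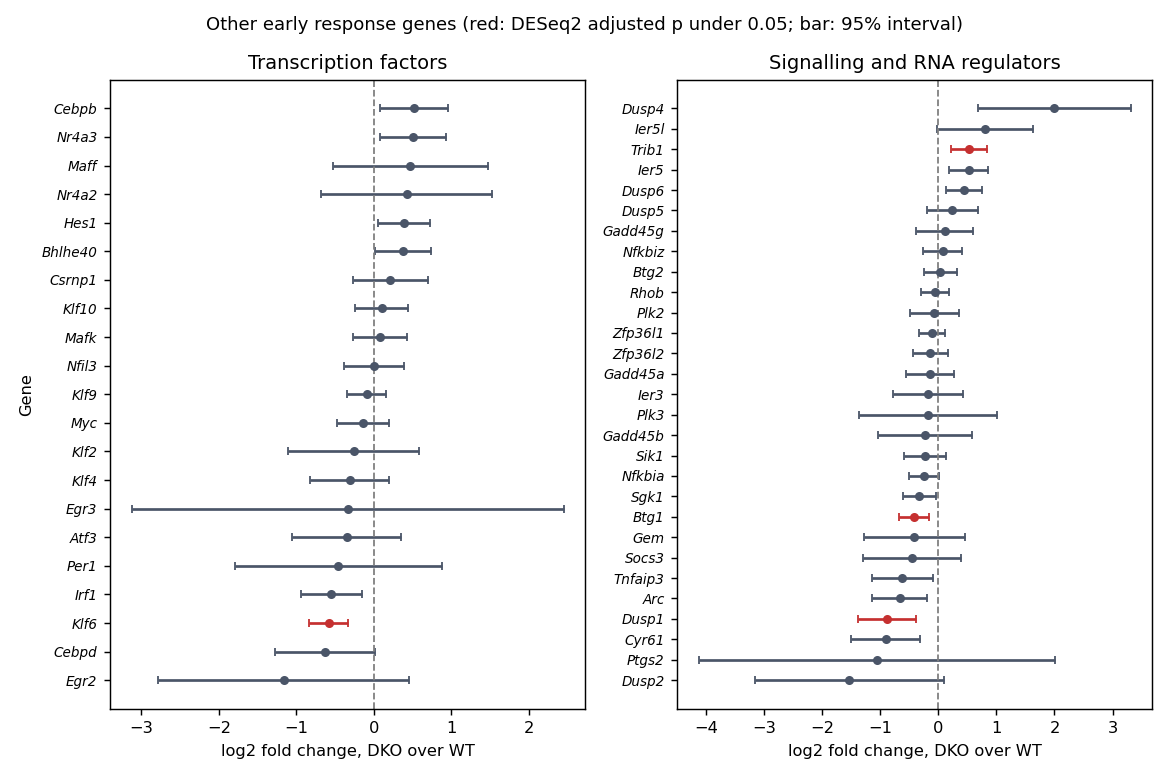
Log2 fold change (x axis, libraries labelled DKO over WT, DESeq2) with 95% intervals for the 21 transcription factors (left) and the 29 signalling and RNA regulators (right) of the early response outside the 10 genes, with the 4 called genes in red. Klf6, Btg1 and Dusp1 lie below 0 and Trib1 above it, and the widest intervals belong to genes with few counts.

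Few of the factors that act on immediate early genes passed the test. Of 23 genes for upstream kinases, promoter factors and AP-1 partners, 22 were tested and 1 passed, where 2.9% of all rows did, with a median log2 fold change of 0.00. Mkl2, a coactivator of SRF that responds to actin, fell, with 1394, 1612 and 1627 normalized counts across WT 1, 4 and 5 and 1277, 1120 and 1188 in DKO 1, 4 and 5 (log2 fold change -0.37, SE 0.11, DESeq2 adjusted p = 0.0306). None of the 22 passed with edgeR or limma-voom, where 2 with each had an unadjusted p under 0.05, and with DESeq2 Mkl2 kept its call without WT 1 or DKO 1 and lost it without any of the other 4 libraries. For Srf itself the value was -0.02 (SE 0.18, adjusted p = 0.984) and for Creb1 it was -0.15 (SE 0.10, adjusted p = 0.546). Transcript levels do not report the phosphorylation by which these proteins act.

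Other signs of sample state were set beside these values. Of 12 heat shock and dissociation response genes, 0 of 12 passed with DESeq2, edgeR or limma-voom, with 2, 3 and 2 at an unadjusted p under 0.05, against 12.2%, 15% and 14% of all rows. Their median log2 fold change was -0.14, with 4 of 12 above 0. In 4 of them, Hspa1a, Hsph1, Dnaja1 and Bag3, the groups did not overlap and the libraries labelled DKO were lower, where 10.5% of all rows were apart in that direction. Their summed normalized counts, to which Hspa8 gave the most, ran from 11582 to 13602 in WT and from 10748 to 14114 in DKO. Mitochondrial reads made up 10.8 to 13.3% of counts. Among 15 circadian clock genes 1 passed with DESeq2, Ciart, at a log2 fold change of 2.03 (adjusted p = 0.0239), where 2.9% of all rows did. With DESeq2, edgeR and limma-voom, 4, 3 and 2 of the 15 had an unadjusted p under 0.05. Dbp ran from 283 in WT 1 to 2155 normalized counts in DKO 4. Cell type markers also differed: 6 of 7 myoepithelial, 7 of 9 granular duct, 4 of 6 T cell, 3 of 6 macrophage, 2 of 6 B and plasma cell and 2 of 6 fibroblast markers tested were lower in the libraries labelled DKO, as was the single neutrophil marker tested, Csf3r. In the same libraries 3 of 10 acinar and 4 of 5 red blood cell markers were higher, while 0 of 6 endothelial, 0 of 8 other duct, 0 of 5 nerve, 0 of 4 muscle and 0 of 2 adipocyte markers passed, with 3, 3, 0, 0 and 0 of them at an unadjusted p under 0.05. These calls are by DESeq2, which called 1.88% of all rows lower and 1.02% higher. With edgeR and with limma-voom, 1 acinar and 2 granular duct markers passed and none of the other lists had a call. These tools called 0.0537% and 0.0376% of all rows. The number at an unadjusted p under 0.05 stayed at 6 of 7 for the myoepithelial and 5 of 5 for the red blood cell list with both. For the fibroblast list it fell from 5 of 6 with DESeq2 to 3 with both. Summed T cell markers were 213, 34.2 and 111 normalized counts across WT 1, 4 and 5 and 4.61 to 12.3 in DKO, so that WT 4 was also the lowest of its group there. The part of cell makeup, clock phase and handling in the values of the 10 genes was not tested.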

How the data were processed

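RNA of 6 female SMGs was sequenced from unstranded Nextera XT libraries on a HiSeq2500. The authors deposited raw read counts per gene symbol, without normalization, in an unfiltered table of 43280 rows and a filtered one of 17527 rows, and a table of CPM after TMM scaling that was not used. The submitters' processing notes list STAR 2.5.2a and the builds GRCm38, mm10 and GRCh38, without saying which step used each, and the counting tool and annotation were not given in the sources used here. Unstranded counting cannot separate genes that overlap on opposite strands.

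The unfiltered counts were tested with DESeq2 1.42.0 in R 4.3.3 (two-sided Wald test of DKO over WT, median-of-ratios size factors of 0.867 to 1.12, rows with at least 10 summed counts, default Cook's and independent filters, Benjamini-Hochberg adjustment over all rows tested, threshold 0.05). This gave 18606 rows, of which 2556 had no adjusted p-value. edgeR 4.0.16 and limma 3.58.1 served as alternatives, beside other size factors and filters, a replicate block and each library left out. Intervals are 95% and cover fitted spread, or counting error where called Poisson. On simulated counts for 18077 genes, DESeq2 recovered 83% of 100 changes with a log2 of 1 and 99% of 100 with a log2 of 2, with 27 false calls. These changes were placed only in genes with a mean of at least 50. The simulation therefore does not cover Fosb or changes as small as those of the 10 genes.

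Coordinates are from GENCODE M21 (GRCm38), in which 39469 row names (91.2%) and all 10 members matched a symbol. Counts differed between libraries of a group by 14.7 to 38.7 times sampling noise (chi-square per degree of freedom), so each was counted as 1 replicate. The labels do not say that they are separate animals, and p-values then measure the spread between these samples only. The genes and lists were chosen with earlier results of these data known. Most genes named outside the 10 followed set rules. They were those with an adjusted p under 0.05, up to 6 of each early response list with the largest fold change at a mean of at least 50, and the 10 rows most like the members. Those said to be chosen later were added. Dusp2, Dusp5, Dusp6, Bhlhe40, Sgk1, Srf, Creb1, Dbp, Egr4, Hspa1a, Hsph1, Dnaja1, Bag3 and Hspa8 were named outside these rules. The targeted genes and those that share exon with a member were named as well.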

Additional observations from a re-analysis of the deposited data

How the results depend on the processing

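Over 16 alternatives and 10 genes, 151 of the 160 fold changes kept their direction and their side of the threshold, 8 changed sign and 1 gained a call. Turning off the independent or the Cook's filter leaves fold changes as they are, so those values could not change sign. All 8 changes of sign came with a library left out or with total counts as size factors. With total counts as size factors, which moved the median of all genes by -0.23, Junb and Jund were at -0.10 and -0.017, and the median of the 10 genes was -0.18. Under that scaling 1472 genes were called, 62 higher and 1410 lower, against 189 and 350, and 9 further early response genes. Without WT 4, Fos, Fosb and Jun turned to 0.48, 0.50 and 0.064, and Nr4a1 was called. Without WT 5 Fosl2 turned to 0.056, and without DKO 5 Jun and Zfp36 turned to 0.021 and 0.0075. The count of called genes was 10 with edgeR and 7 with limma-voom, where 0 further early response genes were called. Leaving out each library gave 149 to 817 called genes (817 without WT 4, 740 without DKO 1, 149 without WT 5, 151 without WT 1, 170 without DKO 4 and 166 without DKO 5). It gave 1 to 5 further early response genes, 0 to 1 of the 10 genes, and medians of the 10 from -0.0070 to 0.23. The lowest values with 1 library left out were -0.97 for Fos, -0.75 for Fosb, -0.14 for Jun, -0.23 for Fosl2 and -0.12 for Zfp36. The causes were not tested. Same-numbered samples did not deviate together (correlations of -0.13, -0.02 and -0.26 for numbers 1, 4 and 5), so the numbers were not taken to pair them. A replicate block gave 343 called genes, 0 of the 10 and 2 further early response genes, Klf6 and Trib1. At 7 to 33 counts per library, Fosb allowed the least precision of the 10.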
